A study of Mus musculus with 14 samples.

Results

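A set of 9 genes of peroxisomal fatty acid oxidation were followed across the livers: Ehhadh, Hsd17b4, Acaa1a, Acaa1b, Decr2, Ech1, Acot4, Crat and Pex11a. They were chosen by name, with earlier results of these data known. They were matched by symbol to 9 of the 51912 Ensembl gene rows, and all 9 passed the count filter. Peroxisomes shorten very long, branched and dicarboxylic fatty acids by beta-oxidation. In each round a bifunctional enzyme carries out the hydration and dehydrogenation steps, a thiolase splits off acetyl-CoA, and accessory enzymes handle unsaturated chains or move the products out. In mouse liver the nuclear receptor PPARα, encoded by Ppara, drives many of these genes in fasting and after peroxisome proliferators, and Ehhadh and Acot family genes are among its classical targets.

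The livers were untreated and came from mice aged 20 weeks, all with floxed alleles of Tet2, an enzyme that oxidizes methylated cytosine. The AIH group (n = 5) had the genotype Tet2fl/fl vav cre+ and spontaneous autoimmune hepatitis. The asymptomatic group (n = 5) had the same genotype without symptoms, and the control group (n = 4) held healthy littermates of genotype Tet2fl/fl cre-. Vav-cre acts in the blood cell lineage, so it is not used to delete Tet2 in hepatocytes, the liver cells richest in peroxisomes. The labels do not state that each library came from a different mouse, and p-values therefore measure the spread between these samples.

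The summed gene count of a library was 15.97 to 18.92 M (M, mega), and counts of the 9 genes ran from 180 (Crat) to 68594 (Ehhadh). Values are CPM, read counts per M counts of a library after TMM scaling. Tet2 held 7.34 to 15.4 CPM in AIH, 4.77 to 9.23 CPM in asymptomatic and 8.53 to 12 CPM in control livers, and no comparison of Tet2 passed the test (adjusted p = 0.0794 to 0.945, edgeR). The 15 hepatocyte markers were all detected, with summed levels of 106600 to 182030 CPM in AIH, 138450 to 163540 CPM in asymptomatic and 129460 to 175130 CPM in control livers. The highest AIH sum was that of AIH 3. AIH 1, 2, 4 and 5 (106596 to 127486 CPM) lay below every asymptomatic and control liver. Alb held the most counts of the 15 markers in every library, and the sums depend on scaling. TMM factors, which divide the counts, were 1.17, 1.15, 1.03 and 1.13 in AIH 1, 2, 4 and 5. They were at most 1.01 in each other library. The 15 leukocyte markers summed to 1453 to 3066 CPM in AIH, 292 to 471 CPM in asymptomatic and 277 to 586 CPM in control livers. Sex is not in the labels. Read from Xist and Y-linked genes, AIH held 4 females and 1 male (AIH 4), asymptomatic held 5 males, and control held 2 females (controls 2 and 3) and 2 males (controls 1 and 4), so sex is partly confounded with group. Unaligned reads made up 6.54% to 9.27% in AIH 4 and asymptomatic 1, 3, 4 and 5, and less than that in each other library.

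Libraries also stood apart in the ratio of Dbp to Arntl, a pair of clock genes whose transcripts peak at opposite times of day. The log2 ratio was 2.63, 5.76, 4.19, -1.86 and 2.92 in AIH livers 1 to 5, 5.74, 1.41, 5.93, 6.13 and 4.69 in asymptomatic livers 1 to 5, and 7.62, -4.55, 6.84 and -2.87 in control livers 1 to 4. Controls 2 and 4 and AIH 4 were therefore below 0, asymptomatic 2 was the lowest of its group, and controls 1 and 3 were the highest of all. In AIH against control, results of the 9 genes are given with all libraries and without those below 0. In the other comparisons this is done for some of the genes.

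The response element of PPARα is a direct repeat of AGGTCA with 1 base between the copies, written AGGTCANAGGTCA. It was searched on both strands in RefSeq promoters of GRCm38.p6, from 250 bases before to 50 bases after the start. Promoters of 7 of the 9 genes were in the table (not Hsd17b4 and Crat). Among all 32851 promoters of this length, 3.86% held the repeat with at most 2 mismatches in its 12 fixed letters, and 16.3% held at least 1 copy of AGGTCA. Of the 7 promoters, Acot4 alone held the repeat at that tolerance. The 250 bases upstream of the start are shown for Ehhadh, Acaa1b and Acot4, the 3 genes with the largest fold changes in AIH against control livers, whose windows hold no annotated exon. Capitals mark the Acot4 match, which reads CGGCCAAAGGTCA on the reverse strand at chr12:84038366-84038378, the last bases before the start. The windows lie at chr16:21787835-21788084 (minus strand, Ehhadh), chr9:119157094-119157343 (minus strand, Acaa1b) and chr12:84038129-84038378 (plus strand, Acot4).
Ehhadh: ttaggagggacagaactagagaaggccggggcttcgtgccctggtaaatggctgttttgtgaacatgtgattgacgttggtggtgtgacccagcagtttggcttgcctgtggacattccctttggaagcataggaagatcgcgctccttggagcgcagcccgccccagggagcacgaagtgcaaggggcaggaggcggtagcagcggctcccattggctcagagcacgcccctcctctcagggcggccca
Acaa1b: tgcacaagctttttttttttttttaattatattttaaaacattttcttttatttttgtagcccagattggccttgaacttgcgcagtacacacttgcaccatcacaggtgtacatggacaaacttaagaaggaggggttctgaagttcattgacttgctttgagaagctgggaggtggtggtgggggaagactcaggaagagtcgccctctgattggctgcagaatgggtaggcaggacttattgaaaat
Acot4: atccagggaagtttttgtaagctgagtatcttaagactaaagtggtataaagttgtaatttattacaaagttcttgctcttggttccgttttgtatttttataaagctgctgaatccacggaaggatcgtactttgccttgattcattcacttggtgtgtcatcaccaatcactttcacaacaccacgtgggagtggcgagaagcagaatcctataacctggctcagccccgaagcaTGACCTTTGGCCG
The best matches in the Ehhadh and Acaa1b promoters each had 4 mismatches. A match is a description of letters and not a bound site, and known response elements outside these windows were not searched.

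AIH and control livers differ in the cre genotype, in hepatitis and in the share of females, and the comparison of the 2 groups holds all of these together. AIH livers held fewer transcripts of most of the peroxisomal genes, and fitted falls ran from 1.99-fold (Ech1) to 8.88-fold (Ehhadh) among those that passed the test. Of the 9 genes 7 were lower at an adjusted p below 0.05 and none was higher, against 6.08% of the 14638 tested genes called lower and 15.6% called higher (edgeR's quasi-likelihood test, Benjamini-Hochberg over all tested genes). Acaa1a and Crat, the other two, missed the threshold in this fit, and both passed with DESeq2 (adjusted p = 0.031 and 0.0196) and when only the AIH and control libraries were fitted (adjusted p = 0.0492 and 0.0227). The median log2 fold change of the 9 genes was -1.63, against -0.01 over all tested genes. In a bulk sample, fewer hepatocytes and less RNA per hepatocyte cannot be told apart. In the same livers 15 of 15 leukocyte markers rose, while of 15 hepatocyte markers 1 rose (Trf), none fell and the median log2 fold change was -0.23. The part of cell composition in the peroxisomal result was not tested.

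**Figure D1:**
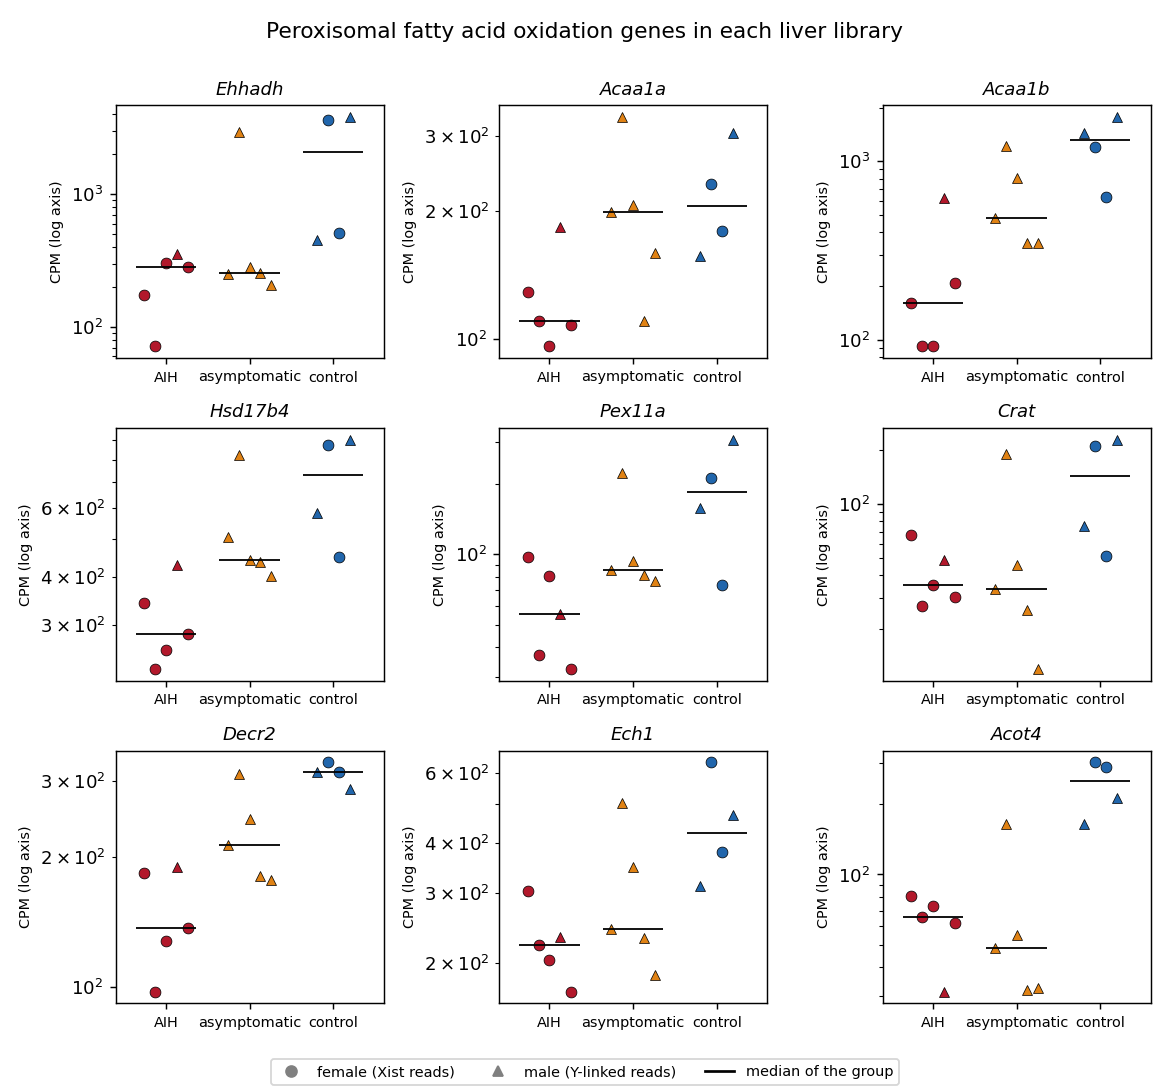
TMM-scaled CPM on a log axis of the 9 peroxisomal genes in each library, grouped as AIH, asymptomatic and control, with circles for female and triangles for male livers and a line at each group's median. Ehhadh lay at 71.4 to 355 CPM in AIH livers and 449.6 to 3832 CPM in control livers, with asymptomatic 2 at 2964 CPM.

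Ehhadh and Hsd17b4 encode the L- and D-bifunctional enzymes, which carry out the hydration and dehydrogenation steps on different chains; Hsd17b4 also serves bile acid synthesis. Ehhadh (ENSMUSG00000022853, GRCm38 chromosome 16, 21761287 to 21787807, minus strand) held 174, 71.4, 303, 355 and 283 CPM in AIH livers, 251, 2964, 283, 253 and 209 CPM in asymptomatic livers, and 449.6, 3648, 513 and 3832 CPM in control livers. Controls 2 and 4 and asymptomatic 2 stood far above the 11 other libraries, and AIH and control livers did not overlap. Its log2 fold change in AIH against control was -3.15 ± 0.91 (SE, adjusted p = 0.0237, lower in 5 of 5 AIH livers than in any control). The call ended without control 2 (adjusted p = 0.0601), control 4 (adjusted p = 0.0641), AIH 1 (adjusted p = 0.0537) or AIH 2 (adjusted p = 0.0585). Among the 11 libraries with Dbp above Arntl the log2 fold change was -1.23 (adjusted p = 0.45), a choice made after seeing the data.

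Hsd17b4 (ENSMUSG00000024507, chromosome 18, 50128201 to 50196269, plus strand) held 342, 232, 259, 429 and 285 CPM in AIH livers, 507, 823, 442, 438 and 402 CPM in asymptomatic livers, and 583, 874, 449 and 900.5 CPM in control livers. AIH and control livers did not overlap here either, though AIH 4 and control 3 were close. The log2 fold change was -1.18 ± 0.27 (adjusted p = 0.00586), and it passed with each library left out in turn.

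Acaa1a and Acaa1b encode the thiolases A and B, which split off acetyl-CoA in the last step of each round. Acaa1b (ENSMUSG00000010651, chromosome 9, 119148023 to 119157093, minus strand) held 160.3, 91.8, 92.5, 622 and 208 CPM in AIH livers, 479, 1225, 811, 347 and 348 CPM in asymptomatic livers, and 1433, 1195, 630.3 and 1771 CPM in control livers. The AIH male, AIH 4, was the highest of its group and lay just below control 3, and the groups did not overlap. Acaa1b fell by 2.42 ± 0.57 on the log2 scale in AIH against control (adjusted p = 0.00727). Acaa1a (ENSMUSG00000036138, chromosome 9, 119339676 to 119350299, plus strand) held 129, 110.1, 95.9, 184 and 108 CPM in AIH livers, 199, 333, 206, 110.4 and 159 CPM in asymptomatic livers, and 157, 232, 179 and 305 CPM in control livers. AIH 4 lay inside the control range, and the log2 fold change of -0.80 ± 0.29 missed the threshold (adjusted p = 0.0653). These paralogs share sequence: 30.5% of the 50-base words of Acaa1b transcripts occur in Acaa1a, so reads in those stretches may have been lost or shared. Exons of Acaa1b overlap Dlec1 on the other strand over 224 bases, and exons of Acaa1a overlap Myd88 over 290 bases. The strand setting of the counting is not given in the sources used here, so reads there cannot be told apart.

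Decr2 and Ech1 prepare unsaturated chains: Decr2 is a peroxisomal dienoyl-CoA reductase, and Ech1 a dienoyl-CoA isomerase of peroxisomes and mitochondria. Decr2 (ENSMUSG00000036775, chromosome 17, 26081208 to 26090337, minus strand) held 184, 97.6, 128, 189.8 and 137 CPM in AIH livers, 213, 311, 245, 180.4 and 177 CPM in asymptomatic livers, and 315, 331, 314 and 288 CPM in control livers. Its control livers were the most even of the 9 genes, with a highest value 1.15 times the lowest, against 8.52 times for Ehhadh. Decr2 had the smallest p of the 9 genes, with a log2 fold change of -1.08 ± 0.21 in AIH against control (adjusted p = 0.00227) and no overlap of the groups. Ech1 (ENSMUSG00000053898, chromosome 7, 28825217 to 28832247, plus strand) held 304, 222, 204, 232 and 169.9 CPM in AIH livers, 244, 503, 349, 232 and 187 CPM in asymptomatic livers, and 312, 638, 379.9 and 471 CPM in control livers. AIH 1 reached nearly the level of control 1. Ech1 fell by 0.99 ± 0.29 on the log2 scale (adjusted p = 0.0232), and the call ended without control 2 (-0.80, adjusted p = 0.0702), with library totals alone (-0.83, adjusted p = 0.0596) and with hepatocyte marker scaling (-0.77, adjusted p = 0.0875).

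Acot4 and Crat act on the products. Acot4 is a peroxisomal acyl-CoA thioesterase, and Crat, carnitine acetyltransferase, passes acetyl groups to carnitine in peroxisomes and mitochondria. Acot4 (ENSMUSG00000052392, chromosome 12, 84038379 to 84048601, plus strand) held 80.7, 65.5, 73.2, 31.4 and 61.8 CPM in AIH livers, 48.2, 165, 55.0, 32.1 and 32.5 CPM in asymptomatic livers, and 164, 303, 289 and 214 CPM in control livers. All AIH livers, and all asymptomatic livers except asymptomatic 2, were below every control. Acot4 fell by 1.96 ± 0.44 on the log2 scale in AIH against control (adjusted p = 0.00562). Of its transcript words of 50 bases 13.4% occur in other genes, most of them in 4732463B04Rik, which overlaps its exons over 615 bases on the other strand.

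Crat (ENSMUSG00000026853, chromosome 2, 30400471 to 30415813, minus strand) held 67.4, 27.0, 35.2, 48.9 and 30.4 CPM in AIH livers, 33.3, 189, 45.4, 25.7 and 11.98 CPM in asymptomatic livers, and 75.7, 210.4, 51.2 and 228 CPM in control livers. Controls 2 and 4 and asymptomatic 2 were highest, as they also were in Ehhadh, Hsd17b4, Acaa1a and Pex11a. In Crat, AIH 1 lay above control 3. The log2 fold change of -1.76 ± 0.66 in AIH against control missed the threshold (adjusted p = 0.0724), and it was -0.69 among the 11 libraries with Dbp above Arntl (adjusted p = 0.622). Exons of Crat overlap Gm16323 over 411 bases and Dolpp1 over 59 bases on the other strand.

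Pex11a encodes a membrane protein of peroxisome elongation and division, the form of the Pex11 family that peroxisome proliferators raise. Pex11a (ENSMUSG00000030545, chromosome 7, 79735957 to 79743131, minus strand) held 97.7, 37.0, 80.4, 55.3 and 32.4 CPM in AIH livers, 85.6, 223, 93.6, 81.4 and 77.1 CPM in asymptomatic livers, and 158, 212, 74.0 and 308 CPM in control livers. Control 3 lay below AIH 1 and AIH 3, so the groups overlapped. Pex11a fell by 1.63 ± 0.44 on the log2 scale (adjusted p = 0.0154), and the call ended without control 4 (-1.31, adjusted p = 0.0547).

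Of the 9 genes, 6 were lower in all AIH livers than in all control livers (Ehhadh, Hsd17b4, Acaa1b, Decr2, Ech1 and Acot4), against 6.61% of all tested genes. Among the 11 libraries with Dbp above Arntl, which leave 2 controls, the count of genes called in AIH against control was 2 of 9 (Acaa1b -2.92, adjusted p = 0.00605; Decr2 -1.23, adjusted p = 0.0137), against 3.27% of the 15292 genes tested there called lower. In these 11 libraries Hsd17b4 was at -0.91 (adjusted p = 0.0569, edgeR) and Acot4 at -1.71 (adjusted p = 0.0568). Pex11a was at -0.93 (adjusted p = 0.26), Ech1 at -0.65 (adjusted p = 0.248) and Acaa1a at -0.63 (adjusted p = 0.231) there. Within females (4 AIH against 2 control livers) 4 of 9 were called, namely Acaa1b, Decr2, Hsd17b4 and Acot4, against 2.51% of all tested genes called lower. Within males none was, against 0.0342% of all tested genes, with a single AIH male that is assumed to vary as the other livers do. The test of the difference between the female and male effects called none of the 9 genes and 0.0% of all tested genes. Differences in effect, female minus male, ran from -1.36 ± 0.87 (Acaa1b) to 0.87 ± 1.01 (Pex11a) on the log2 scale, all with an adjusted p of 1. Scaled by library totals alone, a setting in which the median of all genes is 0.14, 6 of the 9 were called, and 89.8% of all calls were higher, against 72.0% with TMM. With hepatocyte marker scaling, in which that median is 0.19, 6 were called and 92.9% of all calls were higher. All 9 fold changes kept their negative sign under both scalings.

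**Figure D2:**
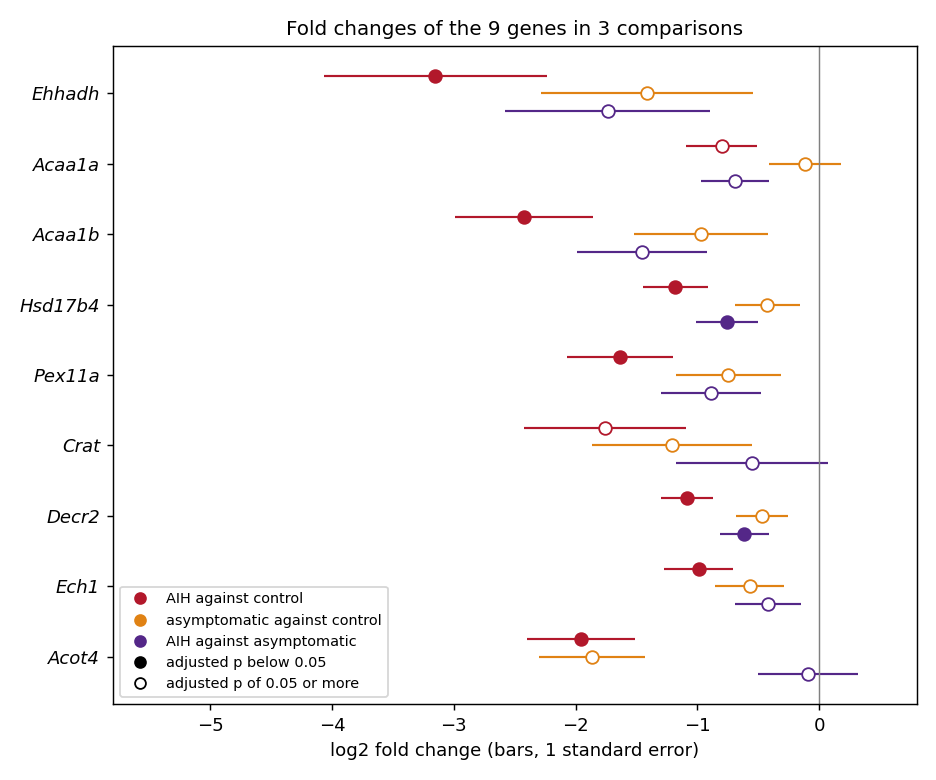
Fitted log2 fold changes of the 9 genes in the 3 comparisons, with bars of 1 standard error and filled points where the adjusted p was below 0.05. All 9 points of AIH against control lie below 0, from -0.80 (Acaa1a) to -3.15 (Ehhadh), and 7 are filled.

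Asymptomatic livers were compared with control livers to describe the deletion without hepatitis. All 5 asymptomatic livers were male and 2 of 4 control livers were female, so the comparison holds genotype and sex together. No peroxisomal gene passed the test. All 9 fold changes were negative, and Acot4 was the largest, with a log2 fold change of -1.87 ± 0.44. With sex as a term Acot4 was at -1.40 (adjusted p = 0.555, edgeR), and within males it was at -1.51. The quasi-likelihood test in edgeR called 0 of the 9 genes and 0.0% of the 14638 tested genes, while at an unadjusted p below 0.05 it gave 2 of the 9 (Acot4 and Decr2) and 1542 of all genes. DESeq2 called 1 of the 9 (Acot4, adjusted p = 0.00631) and 118 of all genes, and limma-voom with quality weights called 6 of the 9 and 1299 of all genes. This comparison shares its 4 control libraries with that of AIH against control.

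The values depended on asymptomatic 2, a male liver whose Dbp to Arntl ratio was the lowest of its group. The Ehhadh fold change was -1.41 ± 0.87 with it (adjusted p = 0.585) and -3.08 without it (adjusted p = 0.0665), and that of Crat was -1.21 ± 0.66 with it (adjusted p = 0.535) and -2.28 without it (adjusted p = 0.0667). Acot4 was at -1.87 with it (adjusted p = 0.308) and at -2.53 without it (adjusted p = 0.0123), the only one of the 9 genes called then. Over the 14 fits that left out 1 library, 0 to 13 of all tested genes were called in this comparison. In the other direction, the 11 libraries with Dbp above Arntl, which leave out controls 2 and 4, gave Ehhadh 0.72 (adjusted p = 0.88) and Acot4 -1.76 (adjusted p = 0.52). The share of unaligned reads also differed between these groups, and as a term in the fit it moved Acot4 to -0.65 (adjusted p = 1). None of the 9 genes was lower in all asymptomatic livers than in all control livers, against 1.15% of tested genes.

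**Figure D3:**
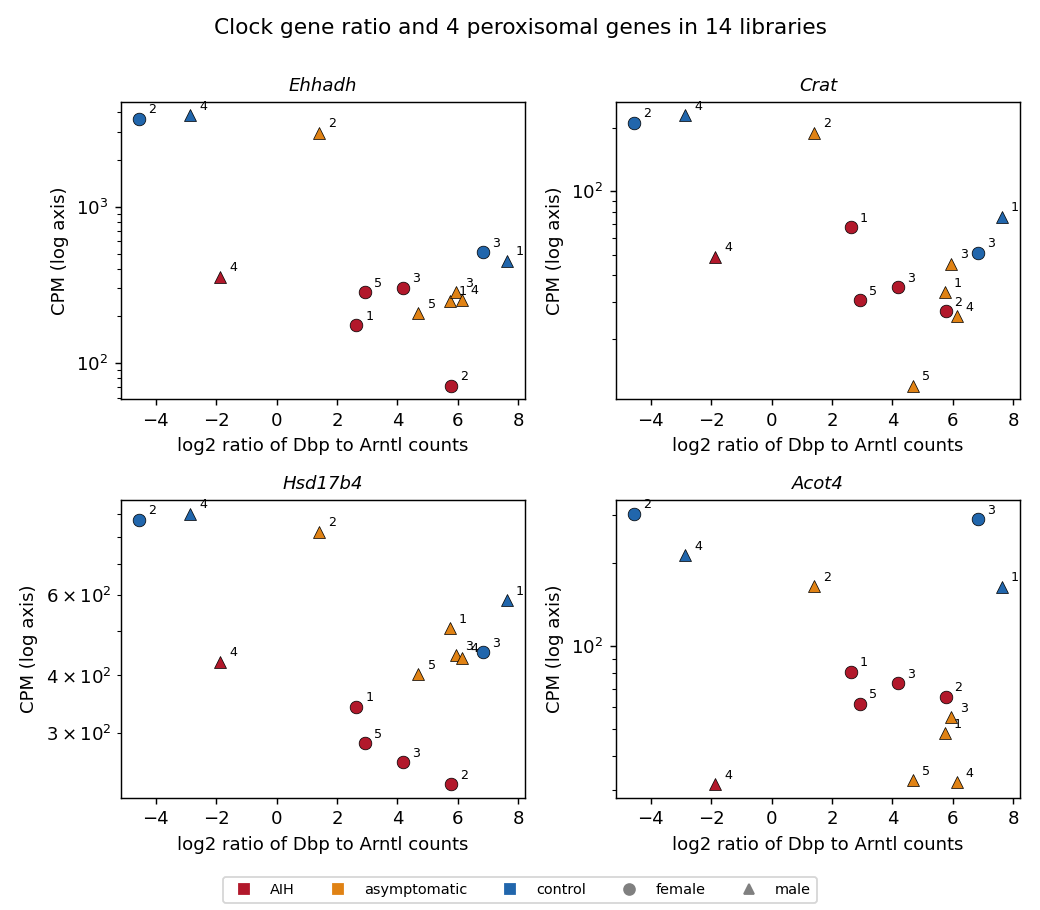
CPM on a log axis of Ehhadh, Crat, Hsd17b4 and Acot4 against the log2 ratio of Dbp to Arntl counts in the 14 libraries, numbered by replicate and coloured by group. AIH 4, at a ratio of -1.86, holds 355 CPM of Ehhadh, while asymptomatic 2, at 1.41, and controls 2 and 4, at -4.55 and -2.87, hold the highest levels.

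With groups in the model, Ehhadh changed by -0.33 ± 0.06 log2 units per unit of the Dbp to Arntl log2 ratio (adjusted p = 0.0355). It was the only one of the 9 genes called for this slope, against 0.362% of tested genes called with a negative slope and 0.232% with a positive slope, and it was examined after the data were seen. The call held in 6 of the 14 fits that left out 1 library, in which the slope ran from -0.37 to -0.25 and the adjusted p from 0.0261 to 0.133. It ended without any 1 of the 4 controls, of asymptomatic 1, 3 or 4, or of AIH 2. Slopes of Crat (-0.20 ± 0.06, adjusted p = 0.165), Hsd17b4 (-0.09 ± 0.02, adjusted p = 0.0626) and Decr2 (-0.03 ± 0.02, adjusted p = 0.626) missed the threshold. With the ratio as a term, 8 of the 9 genes were called in AIH against control, against 6.02% of all tested genes called lower, with Ehhadh at -2.26 (adjusted p = 0.0085) and Crat the exception (-1.34, adjusted p = 0.0675). The part of the time of sampling or of feeding in the Ehhadh result was not tested, and no time of sampling is given in the labels.

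AIH livers were also compared with asymptomatic livers, which share their genotype and differ in hepatitis. These groups also differed in sex, with 4 of 5 AIH livers female and all 5 asymptomatic livers male, and in the share of unaligned reads. The comparison holds all of these together. All 9 fold changes were negative, and 2 passed the test, Decr2 and Hsd17b4. Decr2 averaged 147 ± 39.0 CPM in AIH livers and 225 ± 55.1 CPM in asymptomatic livers (SD, n = 5 each), a log2 fold change of -0.61 ± 0.20 (adjusted p = 0.0327, edgeR). Hsd17b4 averaged 309 ± 78.3 CPM in AIH livers and 523 ± 172 CPM in asymptomatic livers (SD, n = 5 each), a log2 fold change of -0.76 ± 0.25 (adjusted p = 0.0365, edgeR). The share of 2 in 9 stands beside 10.7% of all tested genes called lower and 19.1% called higher. Neither gene was without overlap between the groups, nor was any of the other members, against 4.65% of tested genes. Acaa1b (-1.45 ± 0.53, adjusted p = 0.0529), Acaa1a (-0.69 ± 0.28, adjusted p = 0.0767) and Ehhadh (-1.74 ± 0.84, adjusted p = 0.134) missed the threshold. With sex as a term Acaa1b was at -0.58, Acaa1a at -0.37 and Ehhadh at -1.46. Within males, with 1 AIH liver, Acaa1b was at -0.05, Acaa1a at -0.13 and Ehhadh at -1.16.

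Acot4 was at a like level in both groups, at 62.5 ± 18.8 CPM in AIH livers and 66.5 ± 55.9 CPM in asymptomatic livers (SD, n = 5 each). The fitted log2 fold change was -0.09 ± 0.41 (adjusted p = 0.891), and it was 0.58 without asymptomatic 2 (adjusted p = 0.128). With sex as a term it was -0.84 (adjusted p = 0.38, edgeR), and within males, with 1 AIH liver, it was -1.08. With the share of unaligned reads as a term it was -1.59 (adjusted p = 0.00736). Without asymptomatic 2 the Ehhadh fold change was -0.07 (adjusted p = 0.941), and none of the 9 genes passed. The count was also 0 without asymptomatic 1, AIH 2, AIH 3 or AIH 5, and it was 1 without AIH 1 or asymptomatic 3, 3 without asymptomatic 4 or control 4, and 4 without AIH 4. None passed either with sex as a term, with library totals alone or with hepatocyte marker scaling, under which 88.9% and 94% of all calls were higher, against 64.2% with TMM. In this comparison 3 hepatocyte markers fell (Ttr, Apob and Hnf4a) and 1 rose (Trf).

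Levels were also ranked per length of annotated exons. In AIH livers the order began with Acaa1b at 120 ± 113, Ech1 at 99.2 ± 21.6, Hsd17b4 at 90.9 ± 23.0 and Ehhadh at 79.7 ± 38.2 CPM per kb (SD, n = 5), with differences between neighbours below their spread. In asymptomatic livers Acaa1b stood highest at 327 ± 192 CPM per kb, above Ehhadh at 266 ± 407 CPM per kb, a mean that asymptomatic 2 sets. In control livers Ehhadh stood highest at 708 ± 632 CPM per kb (SD, n = 4), followed by Acaa1b at 641 ± 245, Hsd17b4 at 206 ± 65.0, Ech1 at 197 ± 61.6 and Decr2 at 118 ± 6.73 CPM per kb. Pex11a (59.0 ± 30.8), Acaa1a (49.4 ± 14.9), Acot4 (36.3 ± 9.77) and Crat (26.3 ± 16.9 CPM per kb) were lower in control livers. There Ehhadh and Acaa1b differed by less than their spread, as did Hsd17b4 and Ech1, Pex11a and Acaa1a, Acaa1a and Acot4, and Acot4 and Crat.

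Ratios of 2 genes within a library do not depend on scaling between libraries. Each of 6 ratios set one of the 9 genes against a gene of like function, in 3 comparisons, and none of the 18 passed an exact two-sided permutation test after Benjamini-Hochberg adjustment over the 24 tests of 8 ratios (lowest adjusted p = 0.163, where 5 against 4 livers can reach an unadjusted p of 0.0159 at best). A ratio alone at the smallest reachable p cannot pass after this adjustment, so the absence of calls says little about the ratios. The ratio of Acaa1b to Acaa1a in AIH against control was the only one of the 18 without overlap. It was 1.25, 0.833, 0.964, 3.39 and 1.93 in AIH livers, 2.41, 3.68, 3.93, 3.14 and 2.19 in asymptomatic livers, and 9.14, 5.16, 3.52 and 5.81 in control livers. AIH and control livers did not overlap, and the mean log2 ratio was 0.54 ± 0.82 in AIH and 2.48 ± 0.57 in control livers (SD, n = 5 and 4), a difference of -1.94 (exact permutation p = 0.0159, adjusted p = 0.163). This pair shares the sequence stretches given above, and their part in the ratio was not tested.

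The ratio of Ehhadh to Hsd17b4 was 0.308 to 1.17 in the 5 AIH livers. It was 3.6 in asymptomatic 2 and 0.495 to 0.640 in the other asymptomatic livers, and 4.17 and 4.26 in controls 2 and 4, with 0.771 and 1.14 in controls 1 and 3. The difference in mean log2 ratio was -1.54 in AIH against control (exact permutation p = 0.111, adjusted p = 0.218). Against Hadha, which carries out the same steps in mitochondria, the difference for Ehhadh was -1.71 (exact permutation p = 0.0317, adjusted p = 0.163). Acaa1b against Acaa2, the mitochondrial thiolase, differed by -2.17 (exact permutation p = 0.0317, adjusted p = 0.163), and Crat against Crot by -0.49 (exact permutation p = 0.238, adjusted p = 0.336). Decr2 against Decr1, the mitochondrial dienoyl-CoA reductase, differed by -0.13 (exact permutation p = 0.587, adjusted p = 0.752), and Decr1 itself fell by 1.01 on the log2 scale (adjusted p = 0.00759, edgeR).

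**Figure D4:**
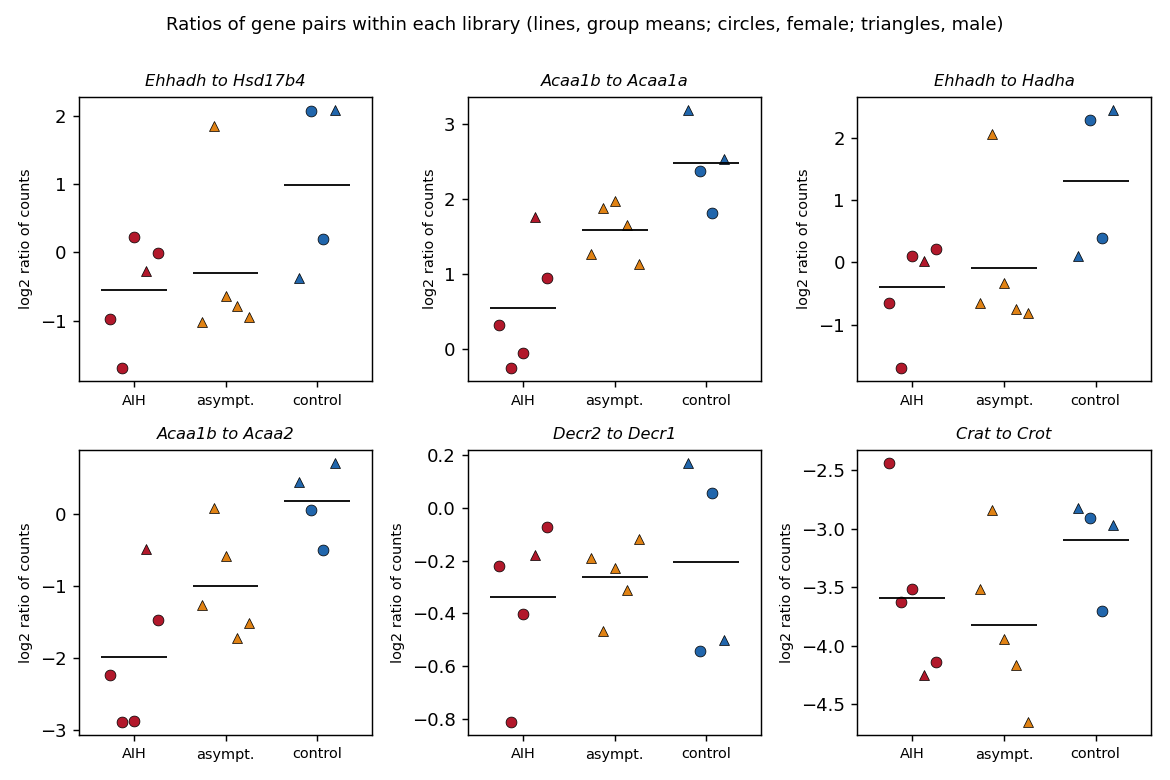
Log2 ratios of counts of 6 gene pairs within each library, grouped as AIH, asymptomatic (asympt.) and control, with circles for female and triangles for male livers and a line at each group mean. The ratio of Acaa1b to Acaa1a lies below every control in all 5 AIH livers, while that of Decr2 to Decr1 overlaps between all groups.

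Profiles over the 14 libraries were compared by the root mean square difference of centred log2(CPM + 0.5) values. Among the 9 genes, Decr2 and Hsd17b4 (0.27) and Acaa1a and Hsd17b4 (0.28) were the closest pairs, and Ehhadh was 0.86 (Crat) to 1.31 (Decr2) from the others. The genes closest to Ehhadh outside the 9 were Lamb3, a laminin subunit (0.46), Retsat, retinol saturase (0.70), Gm15441 (0.82), Slc22a5, a carnitine transporter (0.85), and Cntnap1 (0.85). The genes closest to the median profile of the 9 were Acadm (0.16), Etfdh (0.18), Abcb4 (0.18), Eci1 (0.20) and Caln1 (0.20). Acadm, Etfdh and Eci1 encode enzymes of mitochondrial fatty acid oxidation, and Abcb4 the bile phospholipid transporter.

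The other genes of the pathway were counted from lists, in the same fit. The lists were chosen with earlier results of these data known. Of all tested genes 6.08% were called lower and 15.6% higher in AIH against control. Of 33 other tested genes of peroxisomal oxidation and lipid metabolism, 12 fell in AIH against control and none rose (median log2 fold change -0.78). The count ran from 5 without control 4 to 15 without AIH 4, was 7 without AIH 3, and was 8 without AIH 1 or AIH 2 and among the 11 libraries with Dbp above Arntl. It was 7 with library totals and 6 with hepatocyte marker scaling. The largest falls of the list that passed the test were those of Acsl1, an acyl-CoA synthetase (-1.64 ± 0.44, adjusted p = 0.0151), Ephx2, an epoxide hydrolase (-1.59 ± 0.43, adjusted p = 0.0158), and Slc27a2, a very long chain acyl-CoA synthetase (-1.38 ± 0.27, adjusted p = 0.00198). Without control 4 the calls of Acsl1 (-1.23, adjusted p = 0.0608) and Ephx2 (-1.30, adjusted p = 0.0534) ended. Crot, which transfers medium chains to carnitine, missed the threshold (-1.15 ± 0.47, adjusted p = 0.0986) and passed it without AIH 4 (-1.48, adjusted p = 0.0373).

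Of 17 genes of peroxisome assembly and membrane, 8 fell and none rose in AIH against control, with a median of -0.45. The count was 4 with library totals, 1 with hepatocyte marker scaling and 2 among the libraries with Dbp above Arntl. Pxmp4, a membrane protein, was at -1.06 ± 0.33 (adjusted p = 0.0303), and Pex5, the import receptor, at -0.71 ± 0.18 (adjusted p = 0.0108). The Pxmp4 call ended without control 2, control 4, AIH 2, AIH 3 or AIH 5 (adjusted p = 0.0625 to 0.119), and that of Pex5 passed with each library left out. Of 17 mitochondrial beta-oxidation genes, 15 fell and none rose, with a median of -0.996. The count was 9 with library totals, 8 with hepatocyte marker scaling, 10 without control 2 and 3 among the libraries with Dbp above Arntl. The median of the 9 peroxisomal genes was -1.63, a description since no test between lists was made. Acadm, the medium-chain acyl-CoA dehydrogenase, was at -1.44 ± 0.32 (adjusted p = 0.00522), Cpt2, the inner carnitine palmitoyltransferase, at -1.33 ± 0.28 (adjusted p = 0.00403), Eci1 at -1.29 ± 0.25 (adjusted p = 0.00199) and Acaa2, the mitochondrial thiolase, at -0.55 ± 0.15 (adjusted p = 0.0176).

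Ppara held 90.3, 20.6, 68.2, 77.4 and 101 CPM in AIH livers, 162, 202, 117, 159 and 122 CPM in asymptomatic livers, and 215, 162, 244 and 191 CPM in control livers. All AIH livers were below all others, and controls 2 and 4, the highest in Ehhadh, held less Ppara than controls 1 and 3. Its log2 fold change was -1.51 ± 0.33 in AIH against control (adjusted p = 0.00501), -1.09 ± 0.32 in AIH against asymptomatic (adjusted p = 0.0179) and -0.41 ± 0.33 in asymptomatic against control (adjusted p = 0.674). Of 10 regulators of the pathway 4 fell in AIH against control (Ppara, Rxra, Nr1h4 and Ncor1) and none rose. The count was 2 without control 1 or control 2, and 1 without AIH 2, with library totals, with hepatocyte marker scaling and among the libraries with Dbp above Arntl. The Ncor1 call ended in 9 of the 14 fits that left out 1 library (highest adjusted p = 0.105) and the Nr1h4 call in 2 (highest adjusted p = 0.0634), while Ppara passed in all 14. Of 21 tested PPARα targets outside the peroxisome 9 fell and none rose (median -1.28), with Acot1, a cytosolic thioesterase, at -3.79 ± 1.24 (adjusted p = 0.0413), Cidec, a lipid droplet protein, at -3.49 ± 1.03 (adjusted p = 0.025) and Retsat at -3.04 ± 0.80 (adjusted p = 0.0142). These values rest on few libraries. Acot1 held 1.26 to 12.8 CPM in AIH livers, 125.6 CPM in asymptomatic 2 and 2.46 to 9.23 CPM in the other asymptomatic livers, and 191 and 228 CPM in controls 2 and 4, with 17.5 and 5.39 CPM in controls 1 and 3. Among the libraries with Dbp above Arntl Acot1 was at -0.78 (adjusted p = 0.752), Cidec at -3.54 (adjusted p = 0.103) and Retsat at -2.06 (adjusted p = 0.108), and 1 of the 21 targets fell. The count of targets was 4 without control 4 or AIH 2, 5 without control 2 and 13 without asymptomatic 2. It was 7 with library totals and 6 with hepatocyte marker scaling. The Acot1 call ended without control 2, control 4 or any 1 of the AIH livers (adjusted p = 0.0525 to 0.103), and the Cidec call without control 1, control 4 or AIH 2 (adjusted p = 0.0547 to 0.0746).

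In AIH against asymptomatic livers, 14 of the 33 other peroxisomal genes fell and 2 rose (Hao2 and Eci3), 8 of 17 assembly genes and 5 of 17 mitochondrial genes fell, 5 of 10 regulators fell, and of 21 other targets 3 fell and 2 rose. Of all tested genes 10.7% were called lower and 19.1% higher. With 1 library left out, the number of other peroxisomal genes called in either direction ran from 9 to 20, with 9 or 10 without asymptomatic 1, asymptomatic 4, AIH 1, AIH 3 or AIH 5. Assembly genes ran from 5 (without AIH 5) to 9 and regulators from 4 to 7. Mitochondrial genes ran from 2 to 7, with 2 without asymptomatic 2, AIH 2, AIH 3 or AIH 5 and 3 without asymptomatic 1. Other targets ran from 2 (without asymptomatic 1) to 6, with 3 without asymptomatic 4, asymptomatic 5, AIH 2, AIH 3 or AIH 5. With sex as a term, 1 other peroxisomal gene, 1 assembly gene and no gene of the other 3 lists were called. Counts in either direction follow for the other peroxisomal, assembly, mitochondrial, regulator and other target genes, in that order. They were 10, 1, 1, 4 and 3 with library totals, and 6, 1, 0, 3 and 3 with hepatocyte marker scaling. With the unaligned share as a term they were 1, 0, 0, 1 and 0. In asymptomatic against control livers no gene of these lists was called. Hao2, a peroxisomal hydroxy acid oxidase, held 6.53, 4.52, 8.10, 0.056 and 31.4 CPM in AIH livers, 0.065, 0.294, 0.565, 0.129 and 0.133 CPM in asymptomatic livers, and 1.11, 44.1, 159 and 0.112 CPM in control livers. All 6 female livers were above all 8 male livers, AIH 4 was at the lowest level of all, and sex and group cannot be told apart in its higher level in AIH against asymptomatic livers (5.36 ± 1.66 on the log2 scale, adjusted p = 0.0253, edgeR). Eci3, an enoyl-CoA isomerase, at 3.93 ± 1.27 (adjusted p = 0.0311, edgeR), had at most 7 counts in each male liver and at least 8 in each female liver. Both were named after their values were seen.

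**Figure D5:**
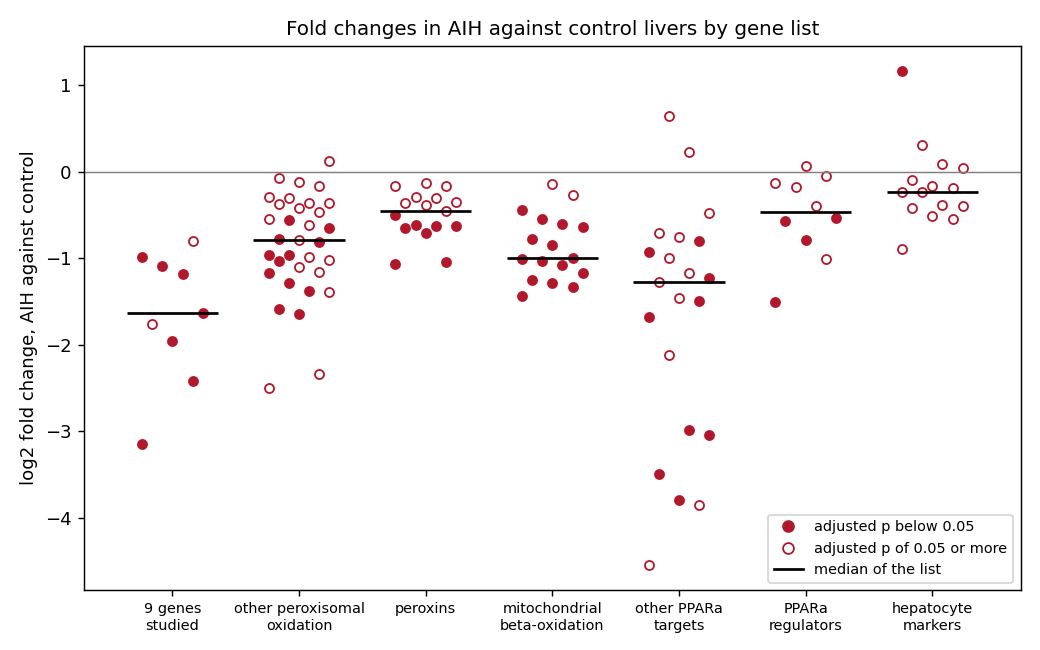
Log2 fold changes in AIH against control livers of the 9 peroxisomal genes and of the genes of 6 lists, filled where the adjusted p was below 0.05, with a line at each list's median. Medians run from -1.63 for the 9 genes and -1.28 for other PPARα targets to -0.23 for hepatocyte markers.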

How the data were processed

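Liver RNA was measured in 14 libraries. The authors deposited unnormalized counts for each Ensembl gene. The submitters' processing notes list HISAT2 2.1.0 and HTSeq 0.9.0 beside cutadapt 1.12, FastQC 0.11.5, R 4.0 and edgeR, with the builds GRCh38 and GRCm38. The gene IDs are mouse, so GRCm38 (GENCODE annotation) was used, which held 51633 of the 51912 IDs. The 5 HTSeq summary rows name no gene and were left out: 3.23% to 9.27% of reads were not aligned, 28.8% to 37.0% not aligned uniquely, 1.38% to 3.05% ambiguous and 2.29% to 3.29% without a feature. Reads lost as not unique or ambiguous lower the counts of genes with near copies, such as Acaa1a, Acaa1b and Acot4.

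Counts were filtered with filterByExpr (14638 genes left), scaled by TMM, and fitted together with 1 mean for each group (edgeR 4.0.16 quasi-likelihood F-test, R 4.3.3, two-sided). Benjamini-Hochberg adjustment ran over all tested genes, with a threshold of 0.05, and standard errors were derived from the F statistic. All 3 pairs of groups were compared. The 8 ratios used counts + 0.5 and exact permutation tests over samples (scipy 1.17.1), and 2 of the 8 are not reported here, nor are some genes of the lists by name, though the counts include them. Alternatives were RLE factors, library totals alone, hepatocyte marker scaling, 2 other filters, a robust spread, DESeq2 1.42.0, limma-voom 3.58.1, only the 2 groups compared, terms for sex, the Dbp to Arntl ratio and unaligned reads, contrasts within a sex, and each library left out. The genes studied and the lists were chosen with earlier results of these data known. Named genes outside the 9 are Ppara, the ratio partners, up to 3 called genes with the largest change of each list, and the genes of closest profile. Rxra and the hepatocyte markers that passed the test were named after their values were seen. Protein sequences were not used here. The pipeline was tested on simulated data.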

Additional observations from a re-analysis of the deposited data

Results flagged for a closer look

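In groups of 4 or 5 libraries, 45 sets of values of the 9 genes and of 6 ratios were examined for a library far from the others by Dixon's criterion, and 9 were found. Chance gives about 1 in 20 such groups, and the sets are not independent of each other, and most of the 9 came from asymptomatic 2.

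Asymptomatic 2 was far above the other asymptomatic livers in Ehhadh (2964 CPM), Hsd17b4 (823 CPM), Pex11a (223 CPM), Crat (189 CPM) and Acot4 (165 CPM). It was also above them in the log2 ratios of Ehhadh to Hsd17b4 (1.85) and Ehhadh to Hadha (2.06). Its Dbp to Arntl log2 ratio of 1.41 was the lowest of its group, its unaligned share was 4.93%, against 7.80% to 9.27% in the other asymptomatic livers, and its leukocyte markers summed to 355 CPM, within the 292 to 471 CPM of the group.

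AIH 4, the male AIH liver, was far above the other AIH livers in Acaa1b (622 CPM). Control 3 was far below the other controls in the log2 ratio of Crat to Crot (-3.70).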

How the results depend on the processing

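In AIH against control, where 7 of the 9 genes were called, the count was 5 to 9 with 1 library left out, 0 within males, 4 within females and 2 among libraries with Dbp above Arntl, 6 with library totals or hepatocyte marker scaling, 8 with limma-voom, the Dbp to Arntl ratio as a term or the unaligned share as a term, and 9 with DESeq2 or only the 2 groups, and all 9 fold changes stayed negative in every setting run. In asymptomatic against control (0 called) it was 1 with DESeq2, 6 with limma-voom and 0 to 1 with 1 library left out. In AIH against asymptomatic (2 called) it was 0 with library totals, hepatocyte marker scaling, sex as a term or within males, 1 with limma-voom, only the 2 groups or the unaligned share as a term, 4 with DESeq2 or with Dbp above Arntl, 6 with the Dbp to Arntl ratio as a term and 0 to 4 with 1 library left out. The cause was not tested. With 1 library left out, all genes called in either direction ran from 2350 to 3425 in AIH against control. They ran from 0 to 13 in asymptomatic against control and from 3317 to 4649 in AIH against asymptomatic. For AIH against control, shares of all genes called lower are given above within each sex and for both uses of the Dbp to Arntl ratio. Most other settings are given without that share, so a changed count there may follow the share of all genes.

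Signs turned in values that had not passed the test. In AIH against asymptomatic, Acot4 was 0.12 with library totals, 0.18 with hepatocyte marker scaling, 0.57 with limma-voom and 0.049 with Dbp above Arntl, and ran from -0.27 to 0.58 with 1 library left out. Crat was 0.73 with limma-voom and ran from -0.81 to 0.52. In asymptomatic against control, Acaa1a was 0.14 with the Dbp to Arntl term, 0.033 with the unaligned share and 0.27 with Dbp above Arntl, and ran from -0.37 to 0.10, and with Dbp above Arntl Ehhadh was 0.72 and Hsd17b4 0.028. With 1 library left out, differences in log2 ratio turned sign in AIH against asymptomatic for Ehhadh to Hsd17b4 (-0.43 to 0.30), Ehhadh to Hadha (-0.49 to 0.23), Crat to Crot (-0.056 to 0.48) and Decr2 to Decr1 (-0.14 to 0.045), and in asymptomatic against control for Decr2 to Decr1 (-0.17 to 0.065). None of the 18 ratio tests passed with 1 library left out or with counts + 5. With so few livers a ratio alone cannot pass after adjustment over 24 tests, so these fits say little about the ratios.

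No paired analysis was possible because replicate numbers follow accession order and pair no livers. Depth did not limit the 9 genes, whose lowest count in a library was 180. Sex, library order (11 to 15 in AIH) and group cannot be told apart where they coincide.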
